A study of Rattus with 9 samples.

Results

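Ptx3 and Srpx fibroblasts were 4640 of the 17053 fibroblasts gated from the rat bile duct and of the 150379 cells read in all. They were chosen by their own transcripts: a gated fibroblast had at least 3 of the 5 genes Col1a1, Col3a1, Dcn, Lum and Dpt detected, at least 3 Col3a1 UMIs (unique molecular identifiers, each standing for 1 captured transcript), and no UMI of Ptprc, Epcam, Cdh5 or Myh11. It was a member when Ptx3 and Srpx together had at least 2 UMIs, more than Ogn and Gpc3 together and more than Mfap5, Htra3 and Cthrc1 together. These 16 genes are therefore described and not tested gene by gene. The share of members, which is compared between samples below, follows from their levels. The remaining gated cells were 6541 Ogn and Gpc3 fibroblasts and 4819 Mfap5, Htra3 and Cthrc1 fibroblasts, defined by the same kind of rule, and 1053 cells in no group.

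Fibroblasts build the collagen-rich wall of the bile duct and release factors that call in and instruct immune cells. Ptx3 encodes long pentraxin 3, a secreted pattern-recognition protein that is induced by inflammatory signals and takes part in assembling the hyaluronan-rich matrix together with the product of Tnfaip6. Srpx encodes a secreted protein with sushi repeats, and Mgp encodes matrix Gla protein, an inhibitor of calcification.

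Single-cell RNA sequencing compared 3 sham samples with bile ducts collected 1, 3 and 7 days after rat liver transplantation with an ischemic injury (LT), and with ducts at the same days after LT in which arterial flow was raised by tying off the splenic and gastroduodenal arteries (LT+flow). Each transplanted group was 1 sample with 2 or 3 libraries, and each sham sample was 1 library. Whether libraries or samples came from separate rats, and the strain, age and sex of the rats, were not given in the labels, so p-values measure only the spread between these samples, which may be technical. The tissue was digested with enzymes for 50 to 70 minutes before capture.

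Libraries held 14398295 to 109245177 UMIs, and 337 to 13575 cells passed the limits on genes, mitochondrial and hemoglobin UMIs. Hemoglobin reads put 2479 of 2923 barcodes of LT day 3 library 2 and 3966 of 4312 of library 3 over the limit, and 365 of the 407 gated fibroblasts of this sample came from library 1. In CPM, the usual scaling of a gene's UMIs to the total UMIs of the summed cells, members of LT day 7 library 2 held 17558 of Slpi against 39.3 in library 1, and library 3 had 16 members. Libraries 2 and 3 of LT day 3 and of LT day 7, called the 4 doubted libraries here, were left out in an alternative chosen after the data were seen. No pair of libraries shared more than 59 cell barcodes, and no pair shared more than 1.19% of the smaller library. A doublet score marked 10953 cells (7.28%), which stayed in and were removed in an alternative. Among members it marked from 0% in sham 1 to 18.1% in sham 2.

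All 5 fibroblast genes of the gate were detected in 95.4% of members, which the rule itself favours. Of genes outside the rule, Mgp stood at 7194 CPM in sham 2 and 5983 in sham 3, 19563, 12569 and 12317 in LT at days 1, 3 and 7, and 33022.5, 14018 and 7987 in LT+flow at days 1, 3 and 7. Pdgfra, a receptor typical of fibroblasts, stood between 185 CPM in LT day 3 and 499.7 in LT+flow day 7. Markers of several other cell types were close to 0, as all 10 blood endothelial markers, all 9 T and NK cell markers and all 7 hepatocyte markers found in the files averaged under 10 CPM over the 8 samples with at least 20 members. Other lists were not. The 6 lymphatic endothelial markers, led by Ccl21, summed to 198 CPM in LT day 7 and 310 in LT+flow day 3, and to at most 25.1 in the rest. The 7 B and plasma cell markers summed to 842 CPM in LT day 7 and at most 46.3 in the rest. Erythroid markers ran from 22.1 to 431 CPM. The summed level of 12 monocyte and macrophage markers ran from 144 to 826 CPM. Of these, 8 averaged at least 10 CPM, led by Lyz2, Tyrobp and Fcer1g, and Cd68, Csf1r, Cd163 and Marco averaged less. The 7 mural cell markers summed to 140.3 to 414 CPM, with 4 at 10 CPM or more, led by Abcc9, Kcnj8 and Rgs5. The 8 mesothelial markers summed to 61.9 and 48 CPM in sham 2 and 3 and to 256 and 256 on day 7 of LT and LT+flow, led by Msln, Wt1 and Rspo1. The 10 neutrophil markers summed to 11813 CPM in LT day 7 against at most 833 elsewhere, of which 10850 CPM was Slpi, a gene of epithelia too. The 9 smooth muscle markers ran from 135 to 1423 CPM, led by Tagln and Acta2, which myofibroblasts share, and the 13 biliary markers from 66.6 to 205 CPM, with Krt7 and Krt19 averaging under 10.

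The share of members among gated fibroblasts was highest on day 1 in both transplanted arms. In sham it was 6.41% (5 of 78 cells), 2.59% (83 of 3200) and 2.45% (119 of 4850), with exact 95% binomial intervals of 2.11 to 14.3%, 2.07 to 3.21% and 2.04 to 2.93%, which cover counting error only. In LT it was 66.2% on day 1 (200 of 302), 7.37% on day 3 (30 of 407) and 7.04% on day 7 (74 of 1051). In LT+flow it was 73.6% on day 1 (3925 of 5333), 13.1% on day 3 (127 of 969) and 8.92% on day 7 (77 of 863). Members were thus the majority of gated fibroblasts in both day 1 samples and a minority in the other 7. Day 1 supplied 4125 members, or 88.9% of all, and LT+flow library 3 of that day alone supplied 2186.

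**Figure D1:**
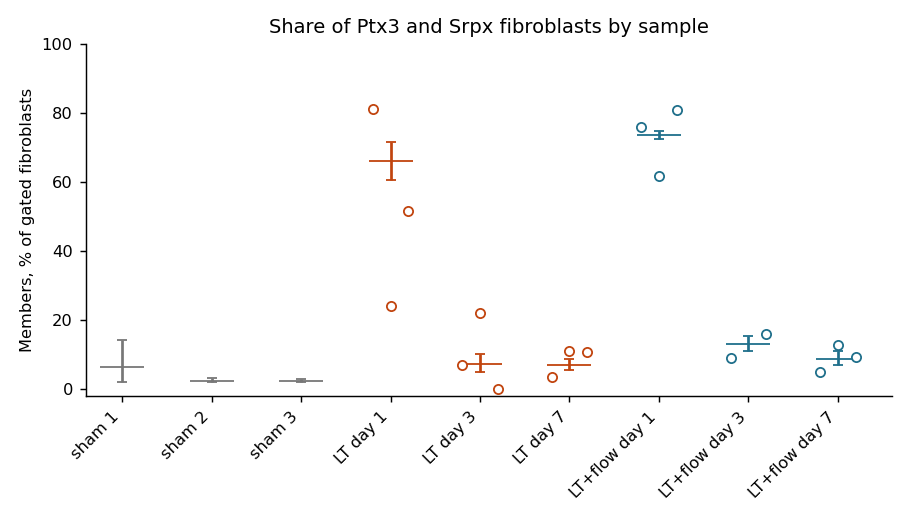
Share of members among gated fibroblasts (%, y axis) in each sample (x axis). Horizontal marks give the whole sample with its exact 95% binomial interval, and open circles give the libraries of a transplanted sample. The 3 LT libraries of day 1 spread from 24.1 to 81.2%, and the 3 LT+flow libraries of that day from 61.8 to 80.9%.

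Over samples the share was 29.4 ± 31.6% (SD, n = 6) after transplantation and 3.82 ± 2.25% (SD, n = 3) in sham, a difference of 25.6 points (exact permutation test, two-sided, p = 0.0238). This is the smallest p that the test returns for 6 samples against 3. The share is set by the levels of the sorting genes, so the test is a test of those levels and no independent evidence. All 6 transplanted samples lay above all 3 sham samples, by less than 1 point for both LT day 3 and LT day 7 against sham 1. Depth differed too, with a day 1 median of 24124.5 UMIs per member in LT and 13551 in LT+flow, against 4784 and 5469 in sham 2 and 3. Each cell was then thinned to 3000 UMIs, leaving out the 14 to 404 shallower cells of a sample. Thinned day 1 shares were 58.5% and 65.9% and thinned sham shares 10.9%, 3.11% and 2.96%. On days 3 and 7 the thinned shares were 9.81% and 6.60% in LT and 15.7% and 9.68% in LT+flow. LT day 3, LT day 7 and LT+flow day 7 thus lay below sham 1 after thinning. The difference from sham no longer passed (exact permutation p = 0.0952). Raised flow gave the higher share on each day, by 7.37 points on day 1, 5.74 on day 3 and 1.88 on day 7 (exact sign permutation p = 0.25, the smallest that 3 pairs allow).

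Ptx3 and Srpx were detected together in 3604 members (77.7%), Srpx alone in 962 and Ptx3 alone in 74, and the median member held 31 UMIs of the pair. The levels describe the rule and are not tested. Ptx3 stood at 684 CPM in sham 2 and 277 in sham 3, 3559, 1616 and 1651 in LT at days 1, 3 and 7, and 2593, 562 and 663 in LT+flow at days 1, 3 and 7, and no Ptx3 UMI was found in the 5 members of sham 1. It was thus highest on day 1 of both arms, and at each later day it was higher in LT than in LT+flow. Srpx stood at 1211 CPM in sham 2 and 1558 in sham 3, 630.1, 537 and 551 in LT at days 1, 3 and 7, and 1273, 1260 and 1194 in LT+flow at days 1, 3 and 7, with all 3 LT samples lower than the sham and LT+flow samples.

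Members accounted for only part of the Ptx3 in the ducts. They held 49.9% of all Ptx3 UMIs of LT day 1 cells and 75.9% of those of LT+flow day 1, against 10.4% in sham 2 and 14.6% in sham 3. Per cell group, Ptx3 in the Ogn and Gpc3 fibroblasts ran from 8.03 CPM in sham 3 to 62.8 in LT day 1, and in the Mfap5, Htra3 and Cthrc1 fibroblasts from 82.1 in sham 3 to 389 in LT+flow day 1. Over all gated fibroblasts, which no rule on Ptx3 had sorted, it was 117 and 35.7 CPM in sham 2 and 3, and 2826 and 2082 on day 1 of LT and LT+flow, then 287 and 163 on day 3, and 244 and 157 on day 7. Ogn moved the other way in the same cells, from 1068 and 1528 CPM in sham 2 and 3 to 60.5 and 146 on day 1 of LT and LT+flow. Srpx was shared out alike on day 1, with 50.1% and 70.4% of each sample's UMIs in members of LT and LT+flow. Cells that were neither gated fibroblasts nor called immune or epithelial held 49.1% of the Ptx3 UMIs of LT day 1 and 22.2% in LT+flow day 1. Their Ptx3 level was 503 and 484 CPM, and 3.39% and 11.7% of them had 2 or more UMIs of the pair. Levels were lower in immune and epithelial cells, although macrophages and neutrophils can make Ptx3 themselves. The part of free RNA in these levels was not tested. Among immune cells, 0.194% of those in LT day 1 and 0.427% of those in LT+flow day 1, the highest of the 9 samples, had 2 or more UMIs of the pair. Among epithelial cells it was 0.629% and 1.59%. Median depths were 3373 and 4682 UMIs in immune and 8537.5 and 6042 in epithelial cells, below those of members.

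**Figure D2:**
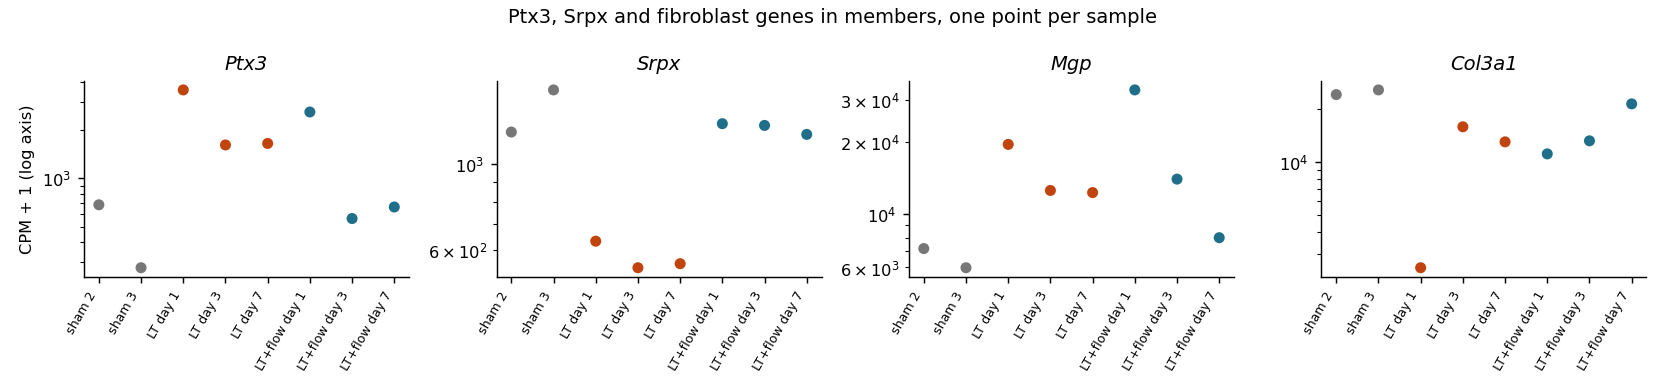
Ptx3, Srpx, Mgp and Col3a1 in members (CPM + 1, log axis), 1 point per sample with at least 20 members, sham in grey, LT in red-brown and LT+flow in blue-green. Ptx3 and Mgp are highest in the day 1 samples, Srpx is lowest in the 3 LT samples, and Col3a1 is lowest in LT day 1 at 2491 CPM.

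The other genes of the gate also varied among members. Col3a1, the chain of type III collagen, stood at 24321.5 CPM in sham 2 and 25857.5 in sham 3, 2491, 15919 and 13052 in LT at days 1, 3 and 7, and 11145, 13233 and 21519 in LT+flow at days 1, 3 and 7. Lum, a collagen-binding proteoglycan, was 3628 and 3292 CPM in sham 2 and 3 and 399 and 1018 on day 1 of LT and LT+flow. Day 1 members were low in collagen and lumican transcripts compared with sham members, while Dcn ranged only from 2549 to 5405 CPM over the 8 samples.

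At the threshold, 92 members had exactly 2 UMIs of the pair, and 93 gated cells just outside had 1 UMI of it and none of the other 5 sorting genes. The former held a median of 2630.5 UMIs and the latter 3922. Mgp was 16355 and 9348 CPM, Ccl2 1061 and 1079, and Cxcl1 1086 and 965, inside and outside respectively. A further 9327 gated cells had 2 or more UMIs of the pair but as many or more of another sorting pair or trio.

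To ask what set members apart from the other fibroblasts of the same duct, UMIs were summed per sample and cell group and compared within samples (edgeR quasi-likelihood test, adjusted p under 0.05, 8 samples). Against Ogn and Gpc3 fibroblasts, members were higher in chemokines, interleukin genes and Tnfaip6, and lower in Apoe, Ramp1 and Pi16. Of 7909 genes tested, 298 were called higher (3.77%) and 275 lower (3.48%). The median log2 fold change of all genes was -0.01. The cell groups were sorted by their own transcripts, so genes expressed along with a sorting gene are not independent of the sort. The calls fell from 573 to 230 without LT+flow day 1, to 234 without sham 2 and to 262 without sham 3, and the comparison rests on pairing the cell groups by sample, since edgeR without the sample as a term called 0 genes, with 889 of 6147 at an unadjusted p under 0.05. Values in parentheses after a gene are log2 fold changes ± SE, and all genes given this way without a p passed the threshold. The leading genes of the cell group comparisons were named only if they moved alike in every sample, so their 8 of 8 follows from that choice. In the later contrasts, named genes likewise had groups that did not overlap or 1 direction on all 3 days.

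Chemokines and cytokines led. Ccl7, a monocyte attractant, stood in members at 480 CPM in sham 2 and 576 in sham 3, 1595, 1539 and 1843 in LT at days 1, 3 and 7, and 1278, 3390 and 1929 in LT+flow at days 1, 3 and 7. The Ogn and Gpc3 fibroblasts had 86.5 CPM in sham 2 and 65.8 in sham 3, 178, 375 and 1174 in LT at days 1, 3 and 7, and 123, 1213 and 721 in LT+flow at days 1, 3 and 7, lower in each of the 8 samples (log2 fold change 2.28 ± 0.27 SE, adjusted p = 0.00118). Ccl2, the main monocyte chemokine, was also higher in all 8 samples (log2 fold change 1.80 ± 0.23 SE, adjusted p = 0.00118), at 2928 CPM in members of sham 3 against 644, and at 6995 in LT day 3 against 1445. There 1 cell held 1272 of the 4386 Ccl2 UMIs of members. Cxcl1, a neutrophil attractant, was higher in all 8 as well (log2 fold change 1.83 ± 0.23 SE, adjusted p = 0.00118), with 2889 CPM in members of sham 2 against 339.

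Il33, an alarmin that is stored in the nucleus, was higher by 2.39 ± 0.44 (SE) on the log2 scale (adjusted p = 0.00735), and Il6, a cytokine that drives the acute phase response, by 1.99 ± 0.28 (adjusted p = 0.00182). Il33 was 78.5 CPM in LT+flow day 1 members, its lowest, and 542 in LT day 3, its highest. Of the list of inflammatory cytokines and chemokines, 10 of 22 tested genes were called higher and 0 lower, with a median log2 fold change of 1.26. Cxcl6 had the largest change of that list, 3.52, higher in 7 of 8 samples. Cxcl9, an interferon-induced attractant of T cells, was higher in 8 of 8 (1.60 ± 0.21), though 181 of the 244 UMIs in LT day 3 came from 1 cell.

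The hyaluronan and provisional matrix list behaved alike in this comparison, as 10 of 16 tested genes were called higher and 0 lower, with a median log2 fold change of 0.93. Tnfaip6, which transfers heavy chains onto hyaluronan, stood in members at 1842 CPM in sham 2 and 704 in sham 3, 796, 1188 and 764 in LT at days 1, 3 and 7, and 818, 1428 and 1068 in LT+flow at days 1, 3 and 7. The Ogn and Gpc3 fibroblasts reached at most 574 CPM, in LT day 7, and were lower in each sample (log2 fold change 1.86 ± 0.24 SE, adjusted p = 0.00118). The hyaluronan synthase Has2 (1.40 ± 0.37), the proteoglycan Vcan (1.26 ± 0.28) and the matricellular gene Postn (1.22 ± 0.22) were each called higher, in 7 of 8 samples.

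Members were also higher in the metal-binding genes Mt1 (1.55 ± 0.29) and Mt2A (1.54 ± 0.25) and in Sod2 (1.27 ± 0.18), the mitochondrial superoxide dismutase, the first 2 in 7 of 8 samples and Sod2 in all. Of the NF-kappaB and innate feedback genes, 7 of 23 tested genes were called higher and 0 lower, with a median log2 fold change of 0.46. On the log2 scale Fst, which binds activin, was higher by 1.52, Angptl4, an inhibitor of lipoprotein lipase, by 1.27, and Tfpi2, a protease inhibitor, by 1.91. S100a4, a calcium-binding protein, was higher by 1.26, and the profile of empty barcodes could account for 22.1% of its UMIs. Single cells held 74 of the 157 Tfpi2 UMIs of LT day 3 members and 156 of the 340 S100a4 UMIs of LT day 7 members. Mgp, named with the cell group and so no independent evidence, was higher by 0.63 ± 0.16 in 7 of 8 samples.

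Of the cell cycle genes, 13 of 23 tested genes were called higher and 0 lower, with a median log2 fold change of 0.95, and the doublet score had marked 18.1% of sham 2 members. In members Top2a, which untangles replicated chromosomes, stood at 162 and 208 CPM in sham 2 and 3, above its range of 1.75 to 68.6 CPM after transplantation. Without the cells marked as doublets, 10 cell cycle genes were called higher and 1 lower, and without the 4 doubted libraries, 8 were called higher and 1 lower.

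Apoe, Ramp1, Pi16 and several matrix and receptor genes were lower in members. Apoe, a lipid carrier, stood in members at 1055 CPM in sham 2 and 1337 in sham 3, 377, 1072 and 2048 in LT at days 1, 3 and 7, and 963, 1781 and 2367 in LT+flow at days 1, 3 and 7. In the Ogn and Gpc3 fibroblasts it stood between 813 CPM in LT day 1 and 7852 in sham 3, and was higher than in members of the same sample each time (log2 fold change -1.23 ± 0.24 SE, adjusted p = 0.01). Ramp1, part of the receptor for calcitonin gene-related peptide, differed by -1.43 ± 0.15 (adjusted p = 0.00067), and Pi16, a marker of adventitial fibroblasts, by -1.42 ± 0.22 (adjusted p = 0.00319). The adventitial fibroblast list did not move with Pi16 here. It had 2 of 14 tested genes called higher and 2 lower, with a median log2 fold change of -0.04. Col4a5, a basement membrane collagen, differed by -1.36 ± 0.18, Timp3, an inhibitor of metalloproteinases, by -1.37 ± 0.20, and Gpbar1, the membrane receptor for bile acids, by -1.32 ± 0.15. Septin4, Itgbl1, the integrin subunit Itga8, Fndc1, Cd200 and Qpct were lower as well, from -1.19 for Qpct to -1.43 for Septin4.

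**Figure D3:**
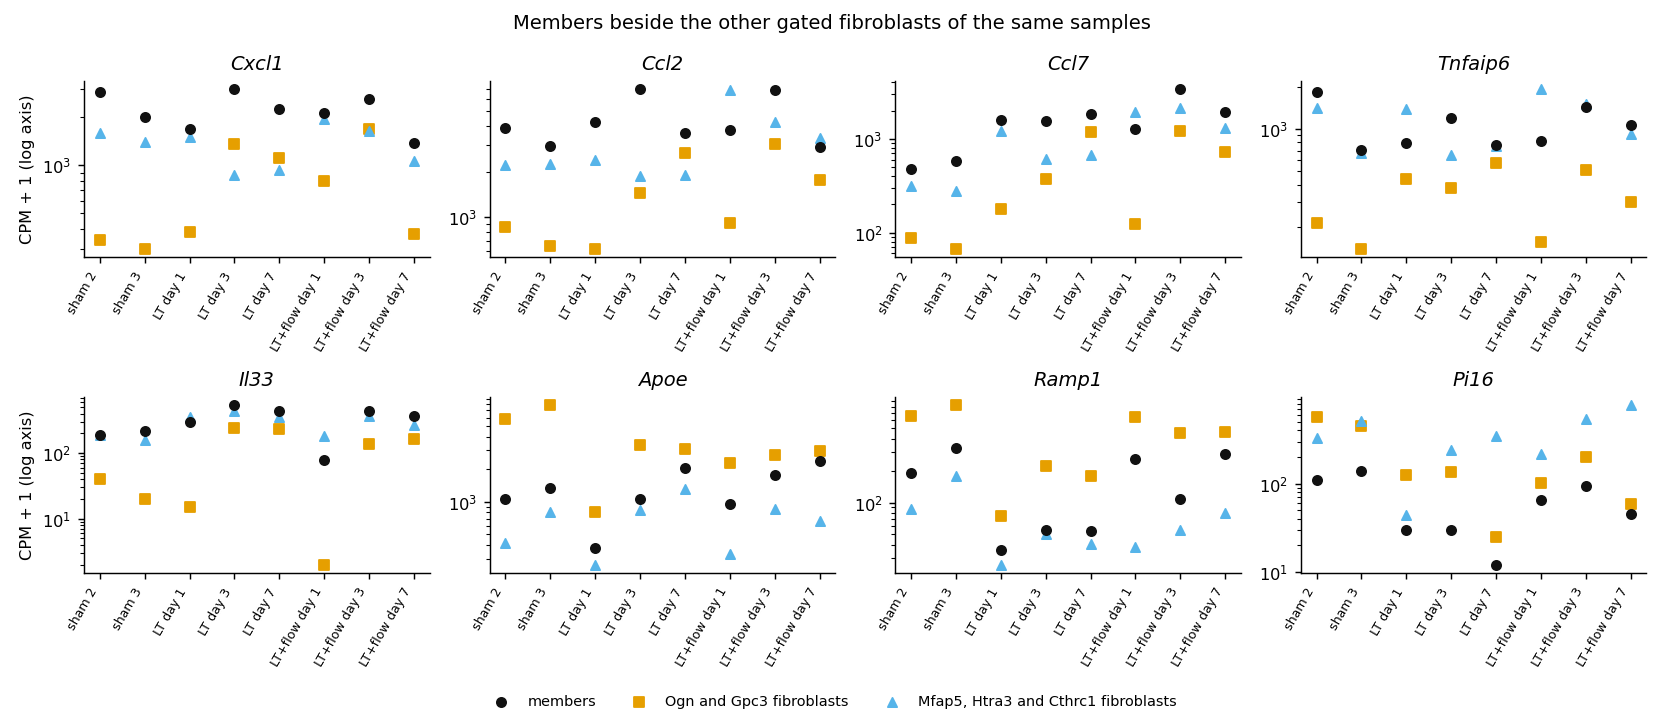
Levels of 8 genes (CPM + 1, log axis) in members (black circles), Ogn and Gpc3 fibroblasts (orange squares) and Mfap5, Htra3 and Cthrc1 fibroblasts (blue triangles) of the same 8 samples. Cxcl1, Ccl2, Ccl7, Tnfaip6 and Il33 are higher in members than in Ogn and Gpc3 fibroblasts of every sample, and Apoe, Ramp1 and Pi16 are lower.

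The second within-sample comparison set members against the Mfap5, Htra3 and Cthrc1 fibroblasts. Here 130 of 11526 genes were called higher (1.13%) and 212 lower (1.84%), with a median of 0.01 over all genes. The calls fell from 342 to 196 without LT+flow day 3 and to 194 without LT+flow day 7, and to 1 without the sample as a term. Members were higher in 5 of 21 retinoid, lipid and steroid genes and lower in 1, and lower in genes of the adventitial fibroblast and of elastic fibers.

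Cyp7b1, an oxysterol hydroxylase, differed by 1.41 ± 0.19 (adjusted p = 0.000249), Lpl, lipoprotein lipase, by 1.36 ± 0.27 (adjusted p = 0.00915), and Ch25h, cholesterol 25-hydroxylase, by 0.88 ± 0.13 (adjusted p = 0.000967), each in 8 of 8 samples. In sham 2 members, 1 cell held 14 of the 27 Ch25h UMIs. Lpl in members stood at 279 CPM in sham 2 and 678 in sham 3, 103, 102 and 285 in LT at days 1, 3 and 7, and 95.9, 116 and 316 in LT+flow at days 1, 3 and 7, highest in sham 3. Its range in the Mfap5, Htra3 and Cthrc1 fibroblasts was 40.4 CPM in sham 2 to 141 in LT day 7. Apoe and Ramp1, which were lower in members than in Ogn and Gpc3 fibroblasts, were here higher, by 0.98 ± 0.13 and 1.13 ± 0.22. Members lay between the other 2 cell groups for both genes in all 8 samples. That count follows from the naming, which required 1 direction in every sample of each comparison. Mt1 (1.02 ± 0.19), Mt2A (1.00 ± 0.21), Sod2 (0.83 ± 0.16), the growth factor signaling inhibitor Spry1 (1.08 ± 0.15), Crispld2 (0.82 ± 0.12), the protease inhibitor Cst3 (0.76 ± 0.13) and the syndecan Sdc4 (0.73 ± 0.13) were also higher in 8 of 8 samples.

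Of the adventitial fibroblast genes, 0 of 15 tested genes were called higher and 12 lower, with a median log2 fold change of -1.23. The comparison cells were sorted by Mfap5, Htra3 and Cthrc1. How far genes expressed along with these follow from the sort was not tested. Pi16 in members stood at 109 CPM in sham 2 and 139 in sham 3, 29.2, 28.7 and 11 in LT at days 1, 3 and 7, and 64.1, 92.6 and 43.8 in LT+flow at days 1, 3 and 7, and the Mfap5, Htra3 and Cthrc1 fibroblasts held more in each sample, from 43.4 CPM in LT day 1 to 777 in LT+flow day 7 (log2 fold change -2.41 ± 0.31 SE, adjusted p = 0.000219). The named gene with the largest fall was Trh, the precursor of thyrotropin-releasing hormone (-2.64 ± 0.38). The microfibril gene Fbn1 (-1.11 ± 0.12), the elastic fiber gene Fbln2 (-1.65 ± 0.24), the guidance ligand Sema3c (-1.45 ± 0.17), the ferritin receptor Scara5 (-1.21 ± 0.19) and Uap1 (-1.26 ± 0.17), an enzyme that supplies sugar for glycans, were lower in 8 of 8 samples, as were Tppp3, Ecm1, Anxa2, Thbd and Plac9, from -1.50 for Tppp3 to -1.01 for Plac9. Of the elastic fiber and microfibril genes, 0 of 19 tested genes were called higher and 5 lower, with a median log2 fold change of -0.33. Of the inflammatory list, 6 of 25 tested genes were called higher and 0 lower, with a median log2 fold change of 0.69. The hyaluronan and cell cycle lists, higher against Ogn and Gpc3 fibroblasts, were not so here. The hyaluronan list had 1 of 18 tested genes called higher and 3 lower, with a median of 0.02. For the cell cycle list 0 of 24 were called in either direction, with a median of 0.06. Neither Ccl2 (3756 CPM in members of LT+flow day 1 against 6927) nor Tnfaip6 (796 in LT day 1 against 1390) was higher in members of every sample.

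Members with Ptx3 but no Srpx could be set against members with Srpx but no Ptx3 in LT+flow day 1 alone, where both kinds had at least 20 cells, so no test over samples was possible. The 51 cells with Ptx3 only had a median of 4502 UMIs, and the 666 with Srpx only 10499.5. Ccl2 was 3034 and 857 CPM, Cxcl1 2176 and 759.6, and Lcn2 3293 and 448, in that order. Mgp was 8794 and 23037, and Col3a1 7510 and 17583. Il6 was 23.6 and 60.9. Ccl2, Cxcl1 and Lcn2 were thus higher in cells with Ptx3 only, and Mgp, Col3a1 and Il6 in cells with Srpx only. The libraries were unevenly represented, as library 2 supplied 477 of the 666 cells with Srpx only and 3 of the 51 with Ptx3 only, and Mgp over all members differed between the libraries, at 17310, 16351 and 53933 CPM. The kind of cell and the library cannot be told apart here.

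The next question was how members themselves differed after transplantation. All contrasts below came from 1 fit of 8 samples with terms for sham, each day and raised flow, which left 3 residual degrees of freedom and shared its samples between contrasts. Sham 1, with 5 members, entered none of them. Averaged over days and arms, 171 of 7162 genes were called higher than in sham (2.39%) and 261 lower (3.64%), with a median of -0.03 over all genes. Median depth of members was 4784 and 5469 UMIs in sham 2 and 3, and 7400 to 24124.5 in the transplanted samples. Cells with Srpx but no Ptx3 made up 54.2% and 77.3% of members in those sham samples, and 9.5% to 52.0% after transplantation. Transplantation, depth and the kind of cell that met the rule cannot be told apart here.

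Transplanted members were higher in Sod2, Lcn2, Timp1 and hypoxia genes. Sod2 stood at 457 CPM in sham 2 and 295 in sham 3, 3793, 2298 and 2948 in LT at days 1, 3 and 7, and 3154, 1812 and 914 in LT+flow at days 1, 3 and 7 (log2 fold change 2.81 ± 0.36 SE, adjusted p = 0.00409). The lowest transplanted sample, LT+flow day 7, lay above both sham samples. Lcn2, an iron-sequestering acute-phase protein, was 1.67 and 6.15 CPM in sham 2 and 3 and 214 to 1679 in the 6 transplanted samples (log2 fold change 7.81 ± 1.15 SE, adjusted p = 0.00758). Timp1, an inhibitor of metalloproteinases, stood at 2082 CPM in sham 2 and 1289 in sham 3, 19366, 13511 and 6317 in LT at days 1, 3 and 7, and 7656, 3966 and 2549 in LT+flow at days 1, 3 and 7 (log2 fold change 2.25 ± 0.24 SE, adjusted p = 0.00168). It was highest on day 1 and lowest on day 7 in each arm.

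Epas1, a hypoxia-inducible transcription factor (3.11 ± 0.47), Angptl4 (3.10 ± 0.43), Adm (2.28 ± 0.30), which encodes the vasodilator adrenomedullin, Hif1a (1.78 ± 0.27) and the glycolytic gene Ldha (1.65 ± 0.25) were all called higher. Of the hypoxia and glycolysis list, 8 of 21 tested genes were called higher and 0 lower, with a median log2 fold change of 0.62. Mt2A (2.15 ± 0.23), Mt1 (1.74 ± 0.36) and Mgp (1.38 ± 0.26) were higher as well. The chemokines Ccl11 (3.30 ± 0.36) and Ccl19 (6.47 ± 0.59) were called higher than in sham 2 and 3, but 1 of the 5 members of sham 1, outside the fit, held 94 Ccl11 and 89 Ccl19 UMIs, and 1 cell held 126 of the 129 Ccl19 UMIs of LT day 3.

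Msln, a mesothelial marker, had no UMI in members of the 3 sham samples, which puts the mean of transplanted samples at least 33.3-fold above the limit that 3 counts over sham 2 and 3 allow, and it reached 153 and 163 CPM on day 7, in 23 of 74 and 23 of 77 members. It was found in 8 of 30 members of LT day 3 and in 4 of 200 of LT day 1. The mesothelial sums given above include Msln itself, and the part of mesothelial cells in the result was not tested. Upk3b, another marker of that list, stood at 0.0161 CPM in LT+flow day 1 and had no UMI in members elsewhere. For several other called genes, 1 cell held a large part of the UMIs of a sample. Slpi, a secreted protease inhibitor (6.23 ± 1.49), stood at 10850 CPM in LT day 7 and 84.7 to 574 in the other transplanted samples, and 1 cell held 45.2% of its LT day 7 UMIs. For Wfdc21 (4.41 ± 0.35), 192 of the 194 UMIs of LT day 3 came from 1 cell. The complement genes C3 (4.92 ± 0.80) and Cfb (6.03 ± 1.44) and the uridine phosphorylase gene Upp1 (3.45 ± 0.38) completed the genes named as higher, and Cfb had 1 UMI in sham 2 and 3 together. In LT day 3, single cells held 15 of the 23 C3 UMIs and 5 of the 9 Cfb UMIs.

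The genes named as lower after transplantation were led by Tppp3, a microtubule-associated protein found in tendon and adventitial progenitors. It stood at 365 CPM in sham 2 and 407 in sham 3, 4.53, 7.97 and 25.7 in LT at days 1, 3 and 7, and 3.12, 11.6 and 5.26 in LT+flow at days 1, 3 and 7 (log2 fold change -5.32 ± 0.28 SE, adjusted p = 8.16e-05). Aspn, a small leucine-rich proteoglycan, differed by -3.21 ± 0.23, Cd34, a progenitor surface glycoprotein, by -3.07 ± 0.37, and Clec11a, a growth factor for skeletal stem cells, by -2.60 ± 0.22. The cell cycle genes Cenpf (-2.82 ± 0.46), Top2a (-2.67 ± 0.65), Nusap1 (-2.63 ± 0.53) and Cenpe (-2.53 ± 0.62) were lower. Of the list 0 of 23 tested genes were called higher and 5 lower, with a median log2 fold change of -0.22. The part of members with a Top2a UMI was not lower throughout. It was 8 of 83 and 12 of 119 in sham 2 and 3, and 27 of 200, 8 of 30 and 10 of 74 in LT at days 1, 3 and 7. In LT+flow it was 390 of 3925, 1 of 127 and 1 of 77, and depth differed between samples. In sham 2, 1 cell held 26 of the 97 Top2a UMIs. Fndc1, the lipid transporter Abca8a, Sapcd1 and Shisa3 differed by -2.92, -2.85, -2.55 and -2.53.

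These counts depended on the samples. With libraries in place of samples 48 genes were called, without the raised-flow samples 79, without the 4 doubted libraries 246, without sham 2 48, without sham 3 16, without LT day 7 278 and without LT+flow day 7 229, against 658, 672 and 878 without LT day 1, LT day 3 and LT+flow day 1.

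Day 1 was the time when members were most of the fibroblasts, and its contrast with sham, added after the data were seen, gave the most calls: 779 of 7162 genes higher (10.9%) and 916 lower (12.8%), with a median of -0.09 over all genes. The 1695 calls fell to 345 without sham 2 and to 84 without sham 3. Day 1 members held more transcripts of several hypoxia, oxidative stress and metallothionein genes than sham members, and fewer of several matrix, adventitial and immediate early genes. Their median depth was 24124.5 and 13551 UMIs against 4784 and 5469 in sham. Members with Srpx but no Ptx3 were 19 of 200 and 666 of 3925 on day 1, and 45 of 83 and 92 of 119 in sham 2 and 3. Day, depth and the kind of cell that met the rule cannot be told apart here.

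Mt2A stood at 405 CPM in sham 2 and 354 in sham 3, 4179, 627 and 761 in LT at days 1, 3 and 7, and 4644, 1050 and 1057 in LT+flow at days 1, 3 and 7, so both day 1 samples lay far above the sham and above every later sample (log2 fold change 3.76 ± 0.27 SE, adjusted p = 0.000255). Within LT+flow day 1, however, its libraries held 1352, 558 and 9411 CPM. The oxidative stress and metallothionein list had 6 of 18 tested genes called higher and 0 lower, with a median log2 fold change of 0.26. Of the hypoxia and glycolysis genes, 10 of 21 tested genes were called higher and 1 lower, with a median log2 fold change of 1.24. Ldha stood at 269 CPM in sham 2 and 274 in sham 3, 2191, 1389 and 592 in LT at days 1, 3 and 7, and 872, 313 and 344 in LT+flow at days 1, 3 and 7 (log2 fold change 2.56 ± 0.29 SE, adjusted p = 0.00154). Sod2 (3.42 ± 0.40), Timp1 (3.06 ± 0.27), the prostaglandin E synthase Ptges (3.60 ± 0.77), the neutrophil chemokine Cxcl6 (4.38 ± 1.32) and the mitochondrial chaperone Hspd1 (1.83 ± 0.24) were called higher. Epas1 (3.49), Angptl4 (3.35), Lcn2 (8.44), Ccl19 (4.97), Wfdc21 (3.55), Nhp2 (3.89), a factor of ribosome and telomerase RNA maturation, and the fatty acid carrier Fabp4 (4.59) were named by the same rule, and 1 cell held 192 of the 306 Fabp4 UMIs of LT day 1. Ca4, a carbonic anhydrase, was at least 49.8-fold above the limit of 3 counts in sham, at 196 CPM in LT day 1 and 15.8 in LT+flow day 1. Mgp rose by 2.18 ± 0.31 (SE) on the log2 scale and was 53933 CPM in library 3 of LT+flow day 1, against 16351 and 17310 in libraries 2 and 1.

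Lower on day 1 were genes of several matrix lists. Of the basement membrane genes, 0 of 14 tested genes were called higher and 8 lower, with a median log2 fold change of -1.28. Of the elastic fiber and microfibril genes, 0 of 17 tested genes were called higher and 8 lower, with a median log2 fold change of -0.65. Of the fibrillar and network collagens, 0 of 11 tested genes were called higher and 5 lower, with a median log2 fold change of -1.56, with Col14a1 at -1.97 ± 0.22 and Col6a1 at -1.56 ± 0.35. Of the adventitial fibroblast genes, 0 of 12 tested genes were called higher and 8 lower, with a median log2 fold change of -1.47, among them Tppp3 (-6.46), Cd34 (-4.20) and Clec3b (-2.23). Of the Wnt ligands and modulators, 0 of 14 tested genes were called higher and 8 lower, with a median log2 fold change of -1.59. Postn fell by 2.38 on the log2 scale and Has2 by 2.08, although Has2 was higher in members than in Ogn and Gpc3 fibroblasts. Immediate early genes respond to stimuli within minutes. Of that list, 0 of 21 tested genes were called higher and 8 lower, with a median log2 fold change of -0.79. Egr1 was 1639 and 2247 CPM in sham 2 and 3 and 334 and 854 on day 1. Aspn, Abca8a, Akap12, Cenpf, Fndc1, Aldh1a3, Cxcl10, Cenpe and Islr were named as lower too, from -3.23 for Islr to -4.78 for Aspn. The cell cycle list went both ways on day 1, with 6 of 23 tested genes called higher and 4 lower and a median of -0.42.

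**Figure D4:**
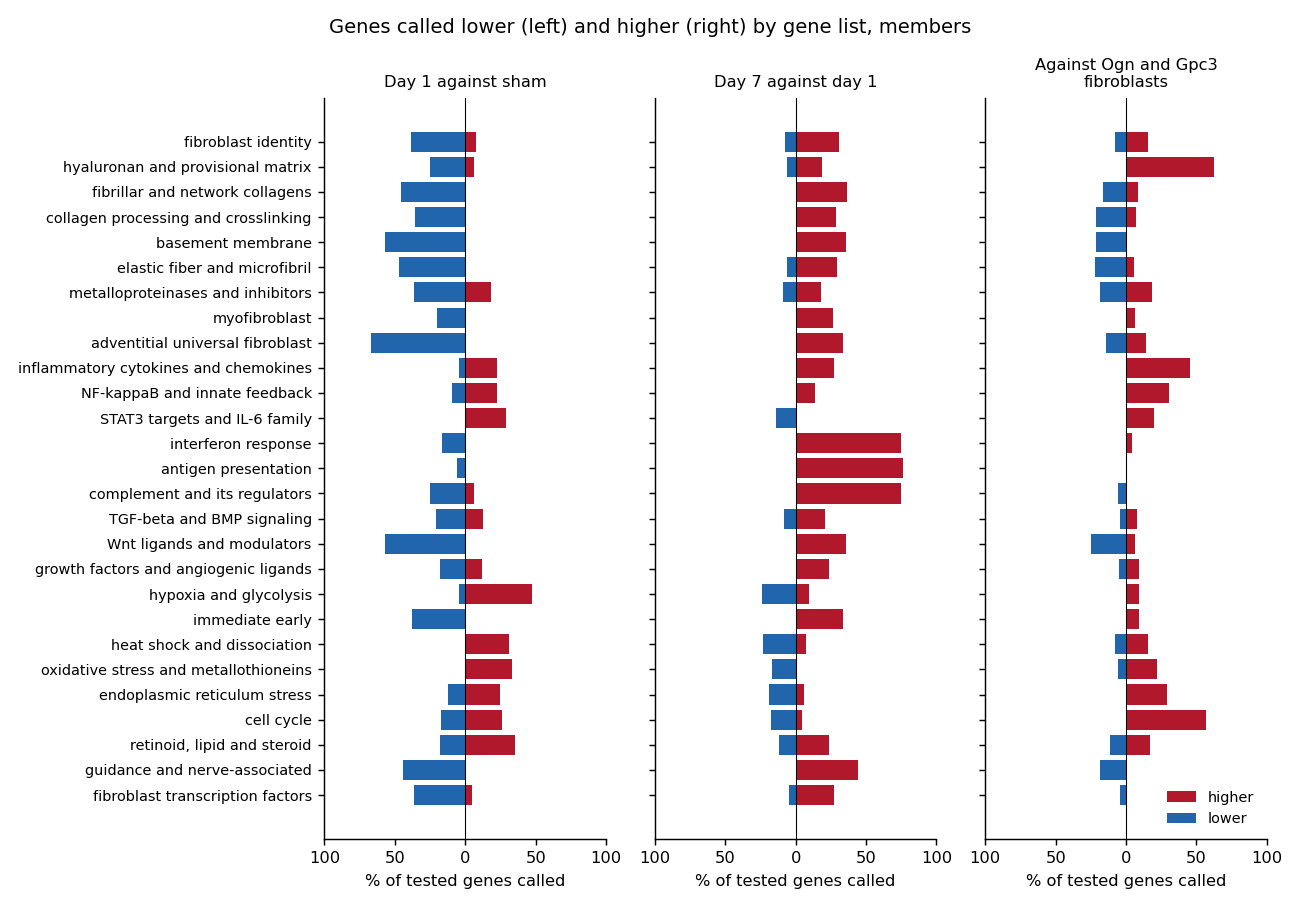
Percent of the tested genes of each list (x axis) called lower (blue, left) or higher (red, right) in members, for day 1 against sham, day 7 against day 1 and members against Ogn and Gpc3 fibroblasts, with lists of at least 9 tested genes as rows. On day 7 the interferon, antigen presentation and complement lists reach 18 of 24, 13 of 17 and 12 of 16 genes higher, and against Ogn and Gpc3 fibroblasts the hyaluronan list reaches 10 of 16.

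Day 7 members held more interferon, antigen presentation and complement transcripts than day 1 members. On day 7, 741 of 7162 genes were called higher than on day 1 (10.3%) and 626 lower (8.74%), with a median of 0.09 over all genes. This contrast rests on 2 samples a day. Median depth was 24124.5 and 13551 UMIs in day 1 members of LT and LT+flow and 8765.5 and 7400 in day 7 members. Members with Srpx but no Ptx3 were 19 of 200 and 666 of 3925 on day 1, and 23 of 74 and 40 of 77 on day 7. Day, depth and the kind of cell that met the rule cannot be told apart here.

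Of the interferon response genes, 18 of 24 tested genes were called higher and 0 lower, with a median log2 fold change of 2.72. Cxcl9 stood at 30.1 CPM in sham 2 and 52.9 in sham 3, 8.03, 389 and 1044 in LT at days 1, 3 and 7, and 1.61, 3260 and 2420 in LT+flow at days 1, 3 and 7 (log2 fold change 8.40 ± 1.25 SE, adjusted p = 0.00552). Both day 1 samples lay below sham, and all 4 later samples above it. Cxcl10, a ligand of the same receptor, stood at 359.6 CPM in sham 2 and 236 in sham 3, 20.8, 189.8 and 465 in LT at days 1, 3 and 7, and 24.4, 3305 and 828 in LT+flow at days 1, 3 and 7 (log2 fold change 4.66 ± 0.87 SE, adjusted p = 0.0113). Ubd, a ubiquitin-like gene (12.50 ± 1.83), had no UMI in LT day 1 members and 460.1 CPM in LT day 7. Ubd, the guanylate-binding gene Gbp5 (5.28 ± 0.54), the GTPase gene Ifi47 (4.69 ± 0.72) and Cxcl11 (10.20 ± 1.45) were among the highest changes, Cxcl11 with 18 of 25 UMIs of LT day 7 in 1 cell. The B cell chemokine Cxcl13 was named too (5.24 ± 1.05), at a mean of 61.7 CPM on day 7. Its 2 day 7 samples were far apart (SD 65.0 CPM), and 1 cell held 4 of its 9 UMIs of LT+flow day 7.

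Of the antigen presentation genes, 13 of 17 tested genes were called higher and 0 lower, with a median log2 fold change of 3.08. The class II chain RT1-Ba stood at 10 CPM in sham 2 and 11.1 in sham 3, 2.47, 27.1 and 74.6 in LT at days 1, 3 and 7, and 2.51, 123 and 198 in LT+flow at days 1, 3 and 7 (log2 fold change 5.84 ± 0.50 SE, adjusted p = 0.00198), and Cd74, the invariant chain, at 90.3 CPM in sham 2 and 19.7 in sham 3, 25.1, 65.4 and 401 in LT at days 1, 3 and 7, and 11.2, 383 and 898 in LT+flow at days 1, 3 and 7 (log2 fold change 4.85 ± 0.92 SE, adjusted p = 0.0115). Immune cells carry these transcripts at high levels, and the profile of empty barcodes could account for 17.8% of RT1-Ba, 17.1% of Cd74 and 37.4% of RT1-Da UMIs in day 7 members. With that profile subtracted, 13 of the 17 genes were still called higher, with a median of 3.10. The monocyte and macrophage markers summed to 247 and 144 CPM in day 1 members and 368 and 289 in day 7 members, and their part in the result was not tested.

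Of the complement genes and regulators, 12 of 16 tested genes were called higher and 0 lower, with a median log2 fold change of 1.71. C3, the central component, stood at 8.36 CPM in sham 2 and 2.46 in sham 3, 13.6, 36.7 and 853 in LT at days 1, 3 and 7, and 26.4, 297 and 943 in LT+flow at days 1, 3 and 7 (log2 fold change 5.60 ± 0.66 SE, adjusted p = 0.0039). C6, a part of the membrane attack complex, differed by 5.42 ± 0.63 and Serping1, the C1 inhibitor, by 2.35 ± 0.35. The growth factor Ptn stood at 274 CPM in sham 2 and 380 in sham 3, 58.7, 683 and 1507 in LT at days 1, 3 and 7, and 44.3, 738 and 1129 in LT+flow at days 1, 3 and 7 (log2 fold change 4.60 ± 0.30 SE, adjusted p = 0.000539). Matrix genes called higher on day 7 included Fn1 (2.34 ± 0.42), Thbs2 (3.34 ± 0.44), Bgn (2.15 ± 0.23), Col18a1 (3.55 ± 0.35) and Col6a2 (1.48 ± 0.23). Of the myofibroblast genes, 4 of 15 tested genes were called higher and 0 lower, with a median log2 fold change of 1.48, with Myl9 at 3.26 ± 0.71 and Acta2 at 1.90 ± 0.48. Acta2 stood at 35 and 118 CPM on day 1 and 313 and 258 on day 7 of LT and LT+flow. The smooth muscle markers, which include Acta2, summed to 135 and 408 CPM on day 1 and 1362 and 901 on day 7. Rgs5, a mural cell gene, was found in 10 of 200 and 245 of 3925 members on day 1 and in 19 of 74 and 2 of 77 on day 7. The part of these cell types in the result was not tested.

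One gene named as higher on day 7 rested on 1 cell. Igh-6, an immunoglobulin heavy chain, had 3931 UMIs in LT day 7 members, of which 3928 lay in 1 cell, and Mzb1, a plasma cell gene, had 594 of 598 UMIs in 1 cell.

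**Figure D5:**
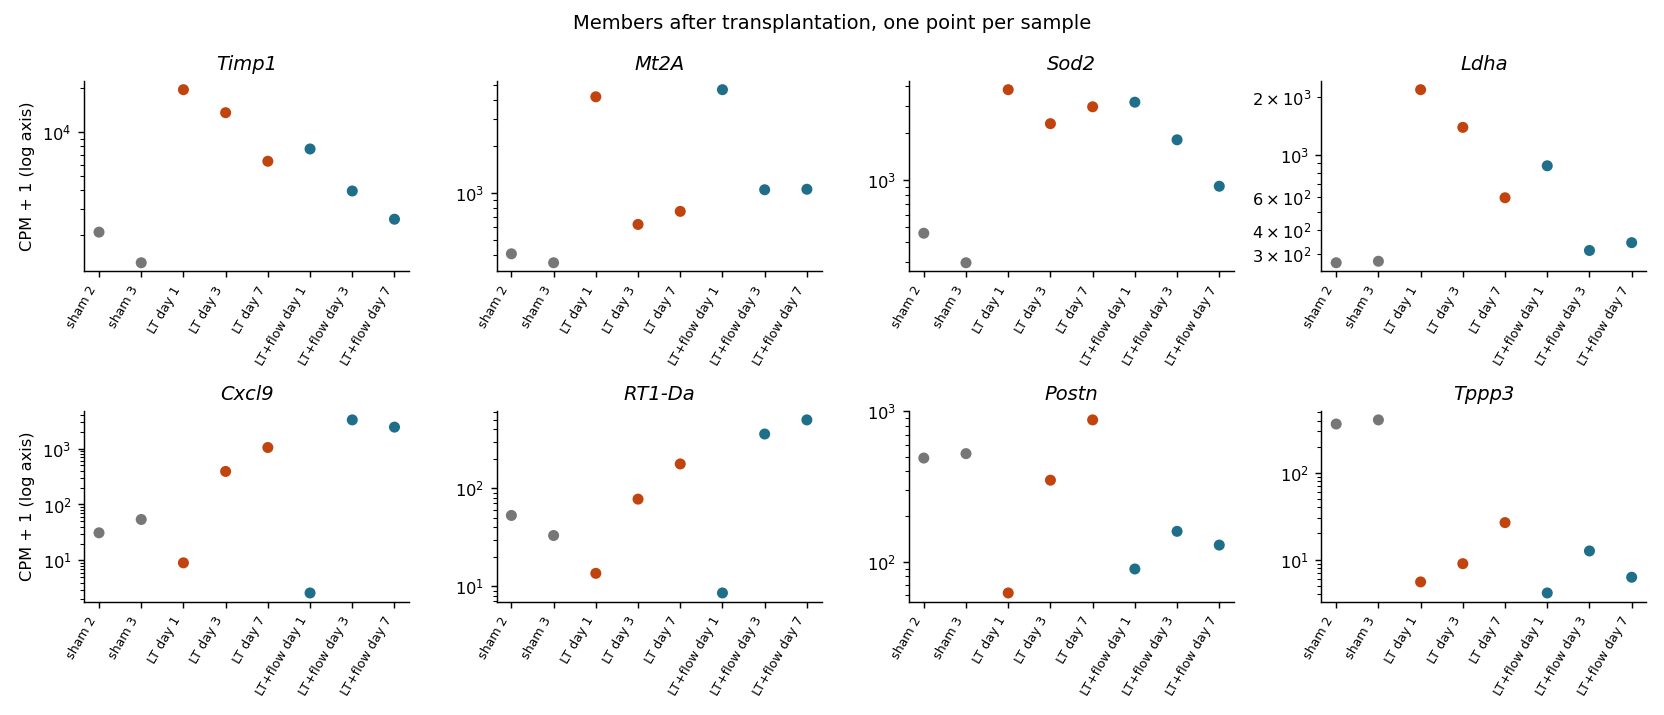
Levels of 8 genes in members (CPM + 1, log axis), 1 point per sample, sham in grey, LT in red-brown and LT+flow in blue-green. Timp1, Mt2A and Ldha are highest on day 1 of each arm, Cxcl9 and RT1-Da are lowest then, Postn reaches 877 CPM in LT day 7 and at most 158 in LT+flow, and Tppp3 is lower in all 6 transplanted samples than in sham.

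Of the oxidative stress and metallothionein genes, 0 of 18 tested genes were called higher and 3 lower, with a median log2 fold change of -0.24, and of the heat shock and dissociation genes, 1 of 13 tested genes were called higher and 3 lower, with a median log2 fold change of -0.02. Among the genes named as lower on day 7, Mt2A differed by -2.39 ± 0.25, Mt1m by -2.56 ± 0.41 and Hspd1 by -2.32 ± 0.25. Nhp2 (-2.65), Mrto4 (-2.46), Rrp9 (-2.46) and Rrp15 (-2.38) take part in making ribosomes, and Timm8a1 (-2.61) in mitochondrial import. Dnph1 (-3.50), the serine synthesis gene Phgdh (-2.40), the DNA repair gene Ung (-2.32) and Znrd2 (-2.26) completed the named genes. Timp1 (-1.68 ± 0.26), Ldha (-1.68 ± 0.28) and Mgp (-1.41 ± 0.30) were called lower too. For day 7 against day 1 in members, the calls fell without LT day 7 from 1367 to 48, without LT+flow day 7 to 477, without sham 2 and sham 3 to 700 and 703, without LT day 1 to 870, and without the 4 doubted libraries, 2 of them from LT day 7, to 836.

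Raised flow was compared with LT over the 3 days, with 48 of 7162 genes called higher than in LT (0.670%) and 30 lower (0.419%) and a median of 0.03 over all genes. On each of the 3 days LT+flow members held less Pgk1, Eno1, Tpi1, Pfkl, Ldha and Timp1 than LT members. Median depth of members was 24124.5, 17667.5 and 8765.5 UMIs in LT at days 1, 3 and 7, and 13551, 7748 and 7400 in LT+flow. Of LT members, 19 of 200, 6 of 30 and 23 of 74 had Srpx but no Ptx3. Of LT+flow members, 666 of 3925, 66 of 127 and 40 of 77 did. Raised flow, depth and the kind of cell that met the rule cannot be told apart here. Pgk1, a glycolytic kinase, stood at 866, 673 and 321 CPM in LT at days 1, 3 and 7, and 347, 156 and 146 in LT+flow (log2 fold change -1.59 ± 0.21 SE, adjusted p = 0.0157). Of the hypoxia and glycolysis list, 0 of 21 tested genes were called higher and 7 lower, with a median log2 fold change of -0.87, and 1 was called lower without the 4 doubted libraries. The 7 included Eno1 (-1.56 ± 0.24), Pfkl (-1.69 ± 0.23) and Ldha (-1.49 ± 0.23). Tpi1, a glycolytic gene outside that list, differed by -1.75 ± 0.31. Timp1 differed by -1.54 ± 0.21 and the lipid carrier Fabp5 by -1.83 ± 0.24.

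Ndufa4l2, a hypoxia-induced mitochondrial gene, stood at 41.2, 95.7 and 50.2 CPM in LT and 1.05, 2.89 and 5.26 in LT+flow (log2 fold change -5.08 ± 0.41 SE, adjusted p = 0.0037). Ca4 (-4.54 ± 0.47), the fibrosis-linked cytokine Il11 (-2.63 ± 0.47), PCOLCE2 (-2.62 ± 0.40), the collagen gene Col5a3 (-2.48 ± 0.30) and Upp1 (-1.65 ± 0.22) were lower with raised flow, though 1 cell held 95 of the 117 Ca4 UMIs of LT day 3. Single cells of that sample also held 30 of its 60 Ndufa4l2 UMIs, 97 of 215 for Il11 and 3089 of 8472 for Timp1. Higher were Ccl19 (3.38 ± 0.36), with 732 of its 1144 UMIs of LT+flow day 7 in 1 cell, Gbp5 (2.51 ± 0.43), Ramp1 (2.10 ± 0.34), the neurotrophic receptor Gfra2 (2.08 ± 0.22), the glutathione transferase Gsta1 (1.77 ± 0.23) and the Wnt modulator Dkk2 (1.48 ± 0.26). Pdlim3, Clec11a, Itgbl1, Pla1a and Islr were higher as well, on the log2 scale by 1.55 for Islr to 2.17 for Pdlim3. Gsta1 stood at 179.9, 242 and 165 CPM in LT and 756, 993 and 429.6 in LT+flow. With 1 sample per arm and day, the arm and the sample cannot be told apart, and the calls fell to 8 without the 4 doubted libraries and to 4 when libraries stood in for samples. They were 11 without either sham 2 or sham 3, 34 and 35 without LT+flow day 7 and LT day 7, and 313 and 353 without LT+flow day 1 and LT day 1.

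Whether transplantation moved members and Ogn and Gpc3 fibroblasts differently was tested with an interaction term. None of 7909 genes was called higher or lower by edgeR (0% in each direction), 398 had an unadjusted p under 0.05, and DESeq2 called 7. On simulated counts this fit called 4 of 94 genes changed by 1 on the log2 scale and 73 of 99 changed by 2. The absence of calls therefore does not show that both cell groups moved alike. The smallest adjusted p in edgeR was 0.165. The naming rule, whose limits on level and spread compared members with the other cells rather than the difference tested here, gave 1 gene, Fndc1 (-1.32 ± 0.30, edgeR adjusted p = 0.471), which was not called and had other genes with a smaller p.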

How the data were processed

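Single-cell 3' RNA libraries of rat bile duct were analysed from the UMI counts that the authors deposited for every barcode of 20 libraries, without normalization. The submitters' processing notes name Cell Ranger 5.0.1 and Seurat 3.2.0; the genome build was not given in the sources used here, so no coordinates or sequences are printed, and LT+flow day 3 library 1 was not analysed here. A barcode counted as a cell when it held over 400 but below 6000 genes and when mitochondrial genes gave less than 25%, and hemoglobin genes less than 3%, of its UMIs. The members and gene lists were chosen with earlier results of these data known. UMIs of members were summed over the libraries of a sample, sums of at least 20 cells entered the fits, and CPM are relative to all UMIs of the cell group.

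Genes were tested with edgeR 4.0.16 in R 4.3.3 (filterByExpr, TMM, quasi-likelihood F test, Benjamini-Hochberg adjustment, threshold 0.05), with the sample as a block between cell groups, and with terms for sham, day and raised flow among samples. Standard errors were derived from the F statistic. Named genes were, per contrast, up to 12 called genes with the largest changes in each direction, at 50 CPM or more in the higher group, moving alike in every sample or with groups that did not overlap. Genes of the rule, mitochondrial, ribosomal and hemoglobin genes, features without a symbol, and genes for which empty barcodes (100 UMIs or fewer) gave over 25% of UMIs were left out. Other genes in the text come from the 30 gene lists or the cell type markers, and the tests were tried on simulated data. Shares were compared by exact permutation tests in SciPy 1.17.1, with exact 95% binomial intervals. A doublet score marked cells above its 92.5th percentile in each library. Alternatives are given in the closing section. Some genes that met the naming rule are not reported here.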

Additional observations from a re-analysis of the deposited data

Results flagged for a closer look

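Of 31 groups of 6 transplanted samples examined, 3 had a sample far from the other 5, with the gap to the nearest over the whole range above 0.625. Chance gives about 1 such group in 20 for 6 values drawn from 1 normal distribution. These groups mixed days and arms, and most were genes named for large changes, so that rate need not hold here. Slpi stood at 10850 CPM in members of LT day 7 and between 84.7 and 574 in the other 5 samples. In that sample 1 of the 74 members held 4011 of 8867 Slpi UMIs. Tppp3 was 25.7 CPM in LT day 7 and 3.12 to 11.6 in the others, all below sham. The share of members among all cells was 16.1% in LT+flow day 1 and 0.216 to 1.45% in the others, where gated fibroblasts were 21.9% of the cells of LT+flow day 1 and 2.19% of those of LT day 1.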

How the results depend on the processing

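The labels do not say whether libraries are separate rats, sham rests on 2 samples in every gene fit, and LT day 3 on 30 members. No result changed direction under any alternative that was run, but many of the genes reported lost the threshold. This held for 52 of 61 genes for transplanted against sham and 71 of 97 for day 1 against sham without sham 3, for 78 of 96 for day 7 against day 1 without LT day 7, and for 50 of 61 for transplanted against sham and 32 of 35 for raised flow with each library as its own sample. Counts of called genes within 1.5 times of the reported ones are not repeated, and the cause of the others was not tested. Without a filter on low counts, calls were 1090 against Ogn and Gpc3 fibroblasts, 708 against Mfap5, Htra3 and Cthrc1 fibroblasts, 1003 for transplanted against sham, 568 for raised flow and 64 for the interaction. DESeq2 called 290 for raised flow and 7 for the interaction. Without the sample as a term, calls were 0 and 1 against the 2 other cell groups. With each library as its own sample they were 48 for transplanted against sham and 4 for raised flow. Transplanted against sham gave 79 without the raised-flow samples, day 7 against day 1 gave 764 without sham, and raised flow gave 1 without the day term. Alternatives chosen after seeing the data left out libraries 2 and 3 of LT day 3 and of LT day 7, which gave 246 for transplanted against sham, 836 for day 7 against day 1 and 8 for raised flow, or the third day 1 library of LT+flow, which gave 41 for raised flow. Leaving out each sample in turn gave 230 to 611 calls against Ogn and Gpc3 fibroblasts, 194 to 448 against Mfap5, Htra3 and Cthrc1 fibroblasts, 16 to 878 for transplanted against sham, 48 to 1875 for day 7 against day 1 in members, 11 to 353 for raised flow, 84 to 2248 for day 1 against sham in members and 0 to 1 for the interaction. The difference in member share was 22.0 points on thinned cells, 2.52 as a share of all cells and 23.1 without the raised-flow samples. The first 2 did not pass the exact permutation test, and the last, with 3 samples against 3, could not, since its smallest two-sided p is 0.1. It was 16.7 to 30.0 when each sample was left out, where the test could not pass without sham 1, sham 2 or sham 3, since 6 samples against 2 allow no two-sided p below 0.0714. The raised-flow difference was 3.81 to 6.55 points when each day was left out.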
